A study of Homo sapiens with 9 samples.

Results

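RNA levels of 38 genes of cholesterol and fatty acid synthesis and transport were compared between parental RKO cells and RKO clones with a targeted DIP2C gene. The genes were taken by name from a list, and each was found among the 23619 gene symbols of the data. They comprise 17 enzymes of sterol synthesis, 5 genes of the machinery that senses sterols, 3 genes of lysosomal cholesterol handling (LIPA, NPC1 and NPC2), 5 genes of cholesterol transport and efflux, and 8 genes of fatty acid synthesis. Of these, 26 are regarded here as targets of the SREBP transcription factors.

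RKO cells derive from a human colorectal carcinoma. The study asked whether loss of DIP2C alters gene expression, and it removed a segment of DIP2C exon 9 by gene targeting with a recombinant adeno-associated virus. Clones were selected with Geneticin, and Cre recombinase then removed the selection cassette and left a LoxP site behind. The 9 libraries comprised 2 parental RKO samples, 2 DIP2C-/- clones (E3 and C10) and 5 DIP2C+/- clones (A6-C9, A9-A12, F6-A7, G1-A5 and H9-A4), all grown for 48 h after plating. Each clone was sequenced as 1 library, so that the p-values measure the spread between clones and between parental samples. According to the paper both DIP2C-/- clones came from retargeting a single DIP2C+/- clone, so they are not independent targeting events. The paper describes fewer DIP2C+/- clones than the 5 sequenced here. The labels do not state whether some of these 5 share a targeting event, or whether 1 of them was the retargeted clone. None of the samples was an RKO clone that had passed through selection with DIP2C intact, so effects of DIP2C loss and of cloning cannot be told apart.

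Cells obtain cholesterol by making it from acetyl-CoA through the mevalonate pathway and by taking up lipoproteins. Lipoprotein cholesteryl esters are cut in the lysosome by the lipase LIPA, and the freed cholesterol is handed by the soluble protein NPC2 to the membrane protein NPC1, which exports it. When sterols in the endoplasmic reticulum run low, SCAP escorts the SREBPs to the Golgi, where they are cleaved and released as transcription factors for synthesis and uptake genes, whereas INSIG1 and INSIG2 hold SCAP back when sterols are plentiful. Surplus cholesterol gives rise to oxysterols, which activate the LXR receptors NR1H2 and NR1H3 and so the efflux pumps ABCA1 and ABCG1.

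Totals were 14772593 to 21486483 estimated counts per library, and 3 counts corresponded to 0.14 to 0.203 CPM (the count of a gene scaled to a common library size). The targeted gene DIP2C was at 61.0 and 70.9 CPM in the parental samples, at 17.4 and 22.8 CPM in the clones E3 and C10, and at 47.0 CPM in F6-A7, 56.3 in H9-A4, 38.9 in A9-A12, 41.7 in G1-A5 and 33.6 in A6-C9. The order of the groups followed the labels, with H9-A4 closest to the parental cells. The log2 fold change of DIP2C was -1.71 ± 0.254 in the DIP2C-/- clones (edgeR, adjusted p = 0.0998 with all 9 samples and 0.00103 without the clone H9-A4). In the DIP2C+/- clones it was -0.60 ± 0.2 with all 9 samples (edgeR, adjusted p = 0.386) and -0.71 ± 0.171 without H9-A4 (adjusted p = 0.0285). The epithelial keratins KRT8 and KRT18 and the intestinal factor CDX2 were detected in every library, whereas the means of EPCAM, KRT19, CDH1, VIL1, KRT20, CDX1 and LGR5 were below 1 CPM in all 3 groups. In single libraries EPCAM reached 3.78 CPM in H9-A4 and 1.02 CPM in parental 1. Markers of blood, stromal and endothelial cells summed to 3.41 to 8.32 CPM. H9-A4 stood apart: its chi-square per degree of freedom against the other DIP2C+/- clones was 116.9 to 136.7, compared with 24.6 to 63.3 among those others. Many of the tests are therefore given both for all 9 samples and without H9-A4. With all 9 samples 28 of 15532 genes (0.18%) differed between the average of the knockout clones and parental cells at an adjusted p-value under 0.05, and 1378 of 15390 genes (8.95%) did so without H9-A4.

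NPC2 was lower in every knockout clone than in both parental samples, and it was the only one of the 37 tested members to pass the threshold with all 9 samples. NPC2 was at 255 and 269 CPM in the parental samples. It was at 55.5 CPM in E3 and 58.0 CPM in C10. In the DIP2C+/- clones it was at 69.3 CPM in F6-A7, 115 in H9-A4, 60.6 in A9-A12, 101 in G1-A5 and 85.6 in A6-C9. The groups did not overlap, and all DIP2C+/- clones lay above both DIP2C-/- clones. Averaged over the 7 knockout clones NPC2 fell by 1.77 ± 0.194 on the log2 scale (SE), which is 3.42-fold (edgeR's quasi-likelihood test, Benjamini-Hochberg adjusted p = 0.0067). In the same comparison 0.18% of all tested genes passed.

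In the DIP2C+/- clones alone NPC2 fell by 1.60 ± 0.21 on the log2 scale (edgeR, adjusted p = 0.0224), a comparison in which 0.0966% of genes passed. This call was lost without either parental sample, E3, C10, F6-A7, G1-A5 or A6-C9 (edgeR, adjusted p = 0.0519 to 0.294), and with only the compared groups (adjusted p = 0.0525), at log2 fold changes of -1.66 to -1.53. In the DIP2C-/- clones alone the log2 fold change was -2.21 ± 0.278, which missed the threshold with all 9 samples (edgeR, adjusted p = 0.0554). Without H9-A4 it was -2.21 ± 0.222 and passed (edgeR, adjusted p = 0.000255), where 4.76% of genes passed. Not every fit with 1 sample left out passed in this contrast, and over these fits the log2 fold change was -2.28 to -2.16. In the DIP2C+/- clones without H9-A4 it was -1.73 ± 0.176 (edgeR, adjusted p = 0.000173), where 7.95% of genes passed. The DIP2C+/- clones were 0.61 ± 0.23 above the DIP2C-/- clones on the log2 scale, a difference that did not pass (edgeR, adjusted p = 0.878 with all 9 samples and 0.679 without H9-A4). The fall in the average was past the threshold without any single knockout clone, but not when parental 1 (adjusted p = 0.114) or parental 2 (adjusted p = 0.0847) was left out in edgeR, with log2 fold changes of -1.82 and -1.73.

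NPC2 lies on the minus strand at chr14:74942895-74960880 (GRCh37). In the GENCODE spans used here it shares 422 bases with ISCA2 on the opposite strand. The study took its gene coordinates from the iGenomes project, and whether the genes share these bases there was not examined. The sources used here do not state whether counting used the strand, so any reads in shared bases cannot be assigned. ISCA2, which acts in iron-sulfur cluster assembly, had a mean of 20.9 CPM in parental and 14.7 CPM in knockout samples, with a log2 fold change of -0.51 that did not pass (edgeR, adjusted p = 0.304). The 250 bases before the first RefSeq start of NPC2, at chr14:74493513-74493762 on the minus strand of GRCh38.p14, are shown because NPC2 carried the largest change among the members. Capitals mark the pentamer CCAAT, the motif of the factor NF-Y, here read from the other strand.

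NPC2: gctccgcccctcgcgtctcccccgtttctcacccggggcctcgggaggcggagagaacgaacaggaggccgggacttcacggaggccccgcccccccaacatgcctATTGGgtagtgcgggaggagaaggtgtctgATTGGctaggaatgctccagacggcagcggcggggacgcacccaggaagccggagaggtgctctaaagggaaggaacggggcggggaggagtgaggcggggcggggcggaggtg

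This window held 2 CCAAT and 5 GGGCGG matches, the latter being the core of the SP1 motif, and it held no match to TCACNCCAC, the sterol regulatory element letters searched here. Both strands were searched and matches may overlap.

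NPC1, the partner of NPC2 in cholesterol export, showed no such pattern. It was at 56.0 and 73.2 CPM in the parental samples and at 52.7 and 68.2 CPM in E3 and C10. The DIP2C+/- clones were at 60.2, 38.2, 87.7, 45.3 and 74.9 CPM, with H9-A4 and G1-A5 below and A9-A12 and A6-C9 above the parental range. The average log2 fold change was -0.08 ± 0.278 (edgeR, adjusted p = 0.93), and it was 0.00 ± 0.225 without H9-A4 (adjusted p = 0.997). NPC1 lies at chr18:21086148-21166470 (GRCh37).

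LIPA, the lysosomal acid lipase, was at 43.8 and 37 CPM in the parental samples and at 45.5 and 52.9 CPM in E3 and C10. In the DIP2C+/- clones it was at 48.3 CPM in F6-A7, 34.9 in H9-A4, 67.0 in A9-A12, 95.5 in G1-A5 and 53.9 in A6-C9. All clones except H9-A4 were above both parental samples. The average log2 fold change of 0.49 ± 0.305 did not pass (edgeR, adjusted p = 0.511), nor did 0.57 ± 0.236 without H9-A4 (adjusted p = 0.173).

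Most other lysosomal genes had higher values in the knockout clones. Of 23 further lysosomal genes, 19 had higher and 4 lower average values in the knockout clones, with a median log2 fold change of 0.29 against 0.02 over all tested genes. With all 9 samples 0 of them passed in edgeR, although 8 had an unadjusted p under 0.05. Without H9-A4 7 rose and LAMP1 fell in the average, where 4.48% of all genes rose and 4.47% fell. CTSL1, the protease cathepsin L, rose by 1.26 ± 0.141 on the log2 scale (edgeR without H9-A4, adjusted p = 0.000285). It was at 98.2 and 116 CPM in parental cells, at 224 to 310 CPM in 6 clones and at 85.9 CPM in H9-A4. TPP1, a peptidase, rose by 0.79 ± 0.136 (edgeR without H9-A4, adjusted p = 0.00479), and PSAP, the precursor of the saposins that help sphingolipid breakdown, by 0.58 ± 0.127 (adjusted p = 0.0164). LAMP1, an abundant lysosomal membrane protein, fell by 0.63 ± 0.123 (edgeR without H9-A4, adjusted p = 0.00908). It was at 164 and 155 CPM in parental cells, at 92.8 to 122 CPM in those 6 clones and at 191 CPM in H9-A4.

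Across all 37 tested members the average log2 fold change was positive for 17 and negative for 20, with a median of -0.06. The medians were -0.14 in the DIP2C-/- clones and 0.00 in the DIP2C+/- clones, beside 0.02 over all tested genes in each. All 7 clones were above both parental samples for PMVK and FADS2 (2 of 37, 5.41%, as in 5.41% of all tested genes) and below both for NPC2 and NR1H3 (5.41% against 5.54%). The share of members with this order was thus close to that of genes in general. Without H9-A4 PMVK, FDFT1, CYP51A1, LIPA and FADS2 lay above (13.5% against 12.4%) and SCAP, NPC2, NR1H3 and ACACB below both parental samples (10.8% against 11.5%). The map of single clones shows NPC2 as the only gene with a deep and shared decrease, and most other members moving in different directions in different clones.

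**Figure D1:**
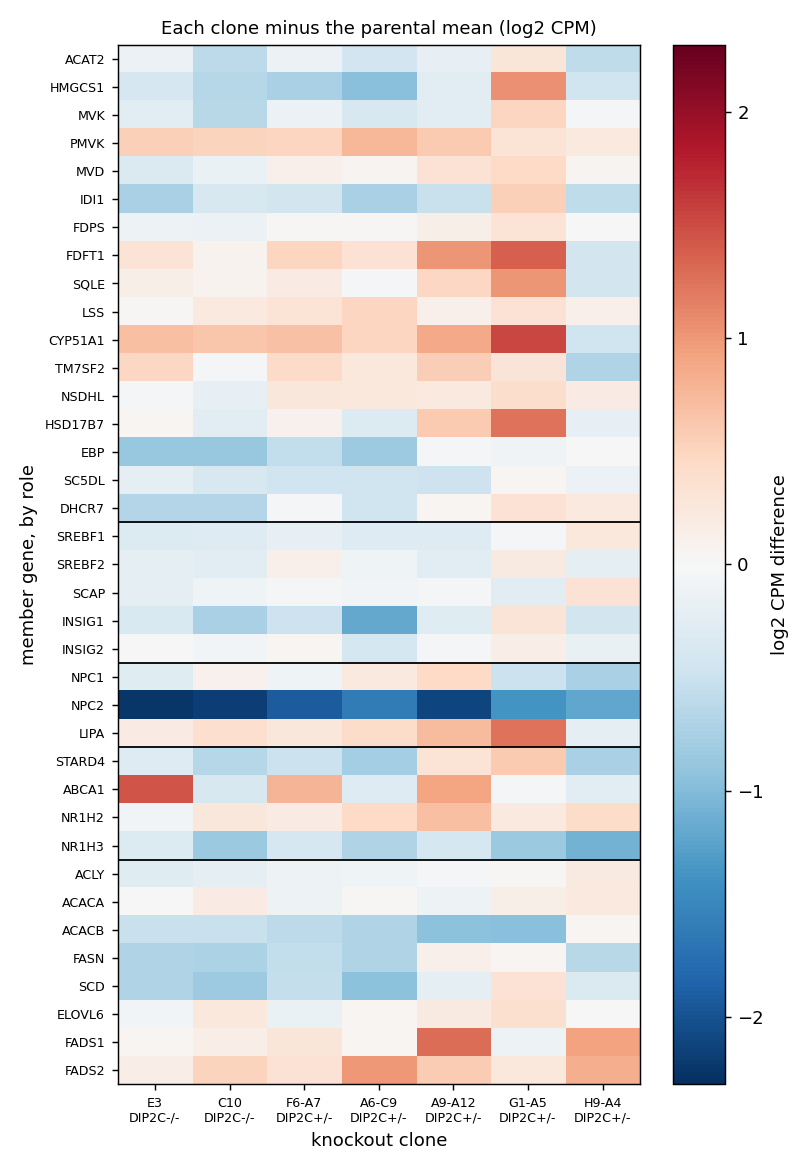
Difference in log2 CPM between each knockout clone (columns) and the parental mean for the 37 tested members (lines, separated by role), in red where the clone is higher and blue where it is lower. NPC2 is lower in every clone, from -2.24 in E3 to -1.19 in H9-A4, and the sterol synthesis genes are mostly red in G1-A5.

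The DIP2C-/- clones were compared with parental cells over the same genes. Of the 26 SREBP targets 16 were lower and 10 higher than in parental cells, with a median log2 fold change of -0.19, and 14 were below both parental samples in both clones (53.8% against 26.3% of all tested genes), while 5 were above both (19.2% against 26.9%). With all 9 samples 0 members passed in edgeR (6 had an unadjusted p under 0.05, and DESeq2 called NPC2), where 0.00644% of all genes did. By role, 6 of the sterol synthesis enzymes were higher and 11 lower, and 4 of the fatty acid genes were higher and 4 lower. Of the epithelial markers, KRT8 was at 20.8 and 21.5 CPM in parental cells and at 11.5 and 11.6 CPM in E3 and C10, and KRT18 at 208 and 265 CPM and at 121 and 155 CPM. KRT8 was also below both parental samples in every DIP2C+/- clone, from 7.01 CPM in H9-A4 to 20.7 CPM in A9-A12. KRT18 ranged there from 149 CPM in A6-C9 to 293 CPM in A9-A12. CDH1 went the other way at low levels. It was at 0.341 and 0.291 CPM in parental cells and at 0.387 to 0.718 CPM in the knockout clones. The summed level of the 5 epithelial markers, of which KRT19, EPCAM and CDH1 had means below 1 CPM, was 230 to 287 CPM in parental cells, 133 to 168 CPM in the DIP2C-/- clones and 167 to 315 CPM in the DIP2C+/- clones. The part of this difference in the values of the lipid genes was not tested. A fit of only the parental and DIP2C-/- samples, an alternative in which the spread comes from 4 libraries, gave 6 members that were lower and 2 that were higher (edgeR, adjusted p under 0.05), where 6.82% of 14381 genes were lower and 5.74% higher. NPC2 was among them, at -2.22 ± 0.124 (adjusted p = 1.21e-05).

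Among the enzymes in that 4-library fit, EBP, the sterol isomerase of the late pathway, fell by 0.89 ± 0.131 on the log2 scale (edgeR, adjusted p = 0.00304). EBP was at 70.8 and 75.1 CPM in the parental samples and at 39.8 CPM in both E3 and C10. DHCR7, the reductase of the last step to cholesterol, fell by 0.69 ± 0.135 (adjusted p = 0.0114). DHCR7 was at 121 and 145 CPM in the parental samples and at 83.3 CPM in both clones, so the clones were close to each other for both enzymes. IDI1, the isomerase of the isoprene units, fell by 0.56 ± 0.149 (adjusted p = 0.0416). SCD, which introduces the double bond of oleate, fell by 0.78 ± 0.132 (adjusted p = 0.00603), and FASN, the fatty acid synthase, by 0.71 ± 0.131 (adjusted p = 0.00843). CYP51A1, the lanosterol demethylase, went the other way and rose by 0.65 ± 0.126 (adjusted p = 0.0107), as did PMVK, the phosphomevalonate kinase, by 0.53 ± 0.147 (adjusted p = 0.049). The spread in this fit comes from the parental samples and from E3 and C10, which are not independent targeting events. With all 9 samples none of these enzymes passed in the same contrast. The edgeR adjusted p-values were 0.318 for EBP, 0.337 for DHCR7, 0.565 for IDI1, 0.373 for SCD, 0.359 for FASN, 0.563 for CYP51A1 and 0.358 for PMVK. Without H9-A4 none passed either (edgeR, adjusted p = 0.0774 for EBP to 0.461 for IDI1).

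In the DIP2C+/- clones the SREBP targets had a median log2 fold change of 0.07 against parental cells, with 16 higher and 10 lower, and 0 passed in edgeR (2 had an unadjusted p under 0.05). The single clones varied, with 10 targets above and 16 below the parental mean in H9-A4, 12 above and 14 below in both F6-A7 and A6-C9, 16 above and 10 below in A9-A12, and 24 above and 2 below in G1-A5. Against the DIP2C-/- clones 23 of the 26 targets were higher in the DIP2C+/- clones and 3 lower, with a median of 0.28 beside 0.01 over all tested genes. In this direct comparison 0 members passed in edgeR or DESeq2, with 5 members at an unadjusted p under 0.05 in edgeR. All 5 DIP2C+/- clones exceeded both DIP2C-/- clones for MVD, FDPS, NSDHL, EBP, DHCR7, NPC2 and ACLY, which is 18.9% of the members against 6.86% of all tested genes, and 0 members had the opposite order, against 5.05%. DHCR7 differed by 0.72 ± 0.2 on the log2 scale (edgeR, adjusted p = 0.878, and 0.679 without H9-A4). Its DIP2C+/- clones were at 128, 156, 138, 168 and 97.5 CPM.

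The DIP2C+/- clones also differed among themselves, and G1-A5 was the clone with high sterol synthesis genes. G1-A5 was above the parental mean for 24 of the 26 SREBP targets, with a median difference of 0.34 on the log2 scale. It had the highest value of the 7 clones for 13 of the 17 sterol synthesis genes (76.5%), as for 15.2% of all tested genes. In G1-A5 6 of the 37 members were at least 2-fold above the parental mean (16.2%, against 4.01% of all tested genes), namely HMGCS1, FDFT1, SQLE, CYP51A1, HSD17B7 and LIPA. In A9-A12 FDFT1 and FADS1 were (5.41% against 7.33%), and in E3 ABCA1 was (2.7% against 8.95%). Beside NPC2, the members at least 2-fold below the parental mean were NR1H3 in H9-A4 (5.41% with NPC2, against 4.18%) and INSIG1 in A6-C9 (5.41% against 7.84%). In the other clones the medians of the targets were -0.13 in E3, -0.20 in C10, -0.08 in F6-A7, -0.08 in H9-A4, 0.13 in A9-A12 and -0.08 in A6-C9. Each clone is 1 library, so these differences between clones have no replicate check, and their cause was not tested.

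**Figure D2:**
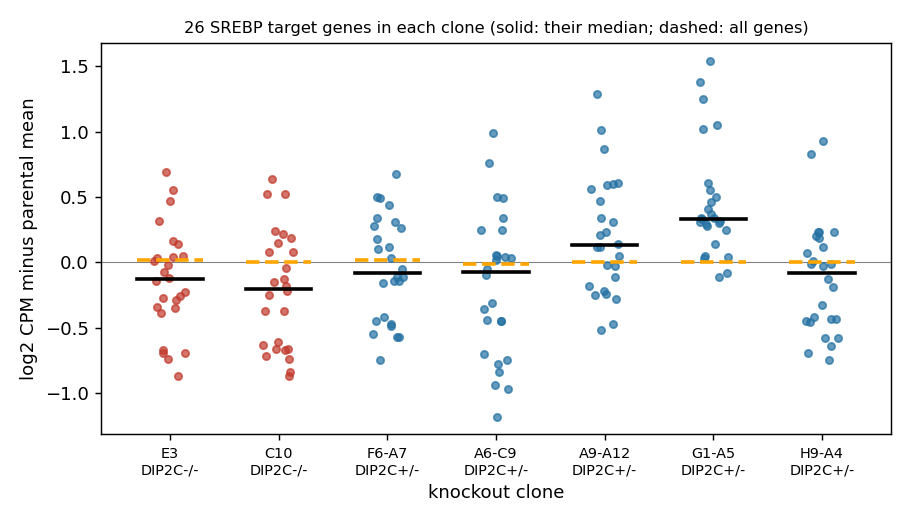
Difference in log2 CPM from the parental mean for the 26 SREBP target genes (points) in each knockout clone, with the median of the targets as a solid line and the median of all tested genes as a dashed line. The median of the targets is 0.34 in G1-A5 and 0.13 in A9-A12, and lies between -0.20 and -0.08 in the other 5 clones.

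G1-A5 had the highest value of the clones for each of the first enzymes of the pathway except PMVK. ACAT2, the thiolase that makes acetoacetyl-CoA, was at 52.6 and 62.1 CPM in parental cells, at 51.7 and 37.4 CPM in the DIP2C-/- clones E3 and C10, and at 51.8, 38.1, 50.5, 69.2 and 42.2 CPM in the DIP2C+/- clones, in the order F6-A7, then H9-A4, then A9-A12, then G1-A5 and last A6-C9, which is kept throughout. HMGCS1, the hydroxymethylglutaryl-CoA synthase, was at 104 and 95.6 CPM in parental cells, at 76.2 and 63.0 CPM in the DIP2C-/- clones and at 59.5, 72.3, 84.7, 206 and 50.9 CPM in the DIP2C+/- clones. All clones but G1-A5 were thus below both parental samples for HMGCS1, and G1-A5 was above them. MVK, the mevalonate kinase, ranged from 21.7 CPM in C10 to 47.9 CPM in G1-A5, around 30.6 and 37.1 CPM in parental cells. PMVK was at 21.3 and 22.7 CPM in parental cells, 32.3 and 31.6 CPM in the DIP2C-/- clones and 31.0, 25.7, 33.4, 27.3 and 37.4 CPM in the DIP2C+/- clones. All knockout clones were above both parental samples for PMVK, but the average log2 fold change of 0.51 ± 0.175 did not pass with all 9 samples (edgeR, adjusted p = 0.313). Nor did 0.55 ± 0.16 without H9-A4 (edgeR, adjusted p = 0.0582). MVD, the decarboxylase that makes isopentenyl diphosphate, was at 16.2 and 15.4 CPM in parental cells, 12.4 and 14.2 CPM in the DIP2C-/- clones and 17.2, 16.5, 20, 21.7 and 16.5 CPM in the DIP2C+/- clones, so the genotypes lay on opposite sides of the parental samples.

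IDI1 was at 82.4 and 86.3 CPM in parental cells, 50.5 and 65.2 CPM in the DIP2C-/- clones and 62.8, 56.2, 58.9, 123 and 50.1 CPM in the DIP2C+/- clones. As for HMGCS1, G1-A5 was above and every other clone below the parental samples. FDPS, the farnesyl diphosphate synthase, ranged from 104 CPM in C10 to 143 CPM in G1-A5 over the clones, with 106 and 123 CPM in parental cells.

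At the branch to sterols, FDFT1, the squalene synthase, was at 111 and 105 CPM in parental cells, 134 and 114 CPM in the DIP2C-/- clones and 153, 80.0, 216, 281 and 136 CPM in the DIP2C+/- clones. All clones but H9-A4 were above both parental samples. The average log2 fold change of FDFT1 was 0.55 ± 0.363 with all 9 samples (edgeR, adjusted p = 0.529) and 0.65 ± 0.243 without H9-A4 (adjusted p = 0.134). SQLE, the squalene monooxygenase, was at 111 and 109 CPM in parental cells, between 81.7 CPM in H9-A4 and 152 CPM in A9-A12 in 6 clones, and at 222 CPM in G1-A5. LSS, which closes squalene epoxide to lanosterol, ranged from 125 to 174 CPM over the clones, beside 128 and 118 CPM in parental cells.

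CYP51A1 passed the threshold once H9-A4 was left out. It was at 76.1 and 74.6 CPM in parental cells, 122 and 117 CPM in the DIP2C-/- clones and 121, 55.0, 137, 219 and 106 CPM in the DIP2C+/- clones. H9-A4 lay below and the other 6 clones above both parental samples. Without H9-A4 CYP51A1 rose by 0.86 ± 0.239 on the log2 scale, or 1.81-fold (edgeR, adjusted p = 0.0489), and with all 9 samples the value of 0.73 ± 0.378 did not pass (adjusted p = 0.425). CYP51A1 lies at chr7:91714301-91764117 (GRCh37) and overlaps AKAP9 on the opposite strand, which was at a mean of 87.5 CPM in parental and 72.9 CPM in knockout samples.

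Of the later enzymes, TM7SF2, a sterol reductase, was at 12.7 and 15 CPM in parental cells, 8.49 CPM in H9-A4 and 13.4 to 20.4 CPM in the other clones. NSDHL, a sterol dehydrogenase of the demethylation steps, was at 30.5 and 38.1 CPM in parental cells, 33.5 and 30.0 CPM in the DIP2C-/- clones and 38.8 to 45.4 CPM in the DIP2C+/- clones. HSD17B7, a ketoreductase of the same steps, was at 9.81 and 9.25 CPM in parental cells, at 7.64 to 14.6 CPM in 6 clones and at 22.9 CPM in G1-A5. Its pseudogene HSD17B7P2 was at a mean of 0.419 CPM in parental and 0.606 CPM in knockout samples. EBP was at 48.9, 73.3, 72.0, 69.1 and 40.7 CPM in the DIP2C+/- clones, so that F6-A7 and A6-C9 lay with the DIP2C-/- clones and the other three with parental cells. SC5DL, a sterol desaturase, was at 43.0 and 34.7 CPM in parental cells and 27.8 to 39.9 CPM in the clones.

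No gene of the sensing machinery passed the threshold in any of the 4 contrasts. SREBF2, which encodes the SREBP that mainly drives cholesterol genes, was at 297 and 303 CPM in parental cells, 261 and 251 CPM in the DIP2C-/- clones and 326, 257, 252, 344 and 279 CPM in the DIP2C+/- clones. G1-A5 was the highest and C10 the lowest of the clones. SREBF1, whose products drive mainly lipogenic genes, was at 188 and 172 CPM in parental cells, 144 and 147 CPM in the DIP2C-/- clones and 159, 213, 146, 176 and 146 CPM in the DIP2C+/- clones. Its average log2 fold change was -0.16 ± 0.155 (edgeR, adjusted p = 0.7), and -0.24 ± 0.117 without H9-A4 (adjusted p = 0.26). SCAP was at 133 and 131 CPM in parental cells, 166 CPM in H9-A4 and 112 to 129 CPM in the other clones.

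INSIG1, itself an SREBP target, was at 76.6 and 70.9 CPM in parental cells, 57.8 and 44.1 CPM in the DIP2C-/- clones and 53.2, 55.0, 60.6, 90.4 and 32.5 CPM in the DIP2C+/- clones. G1-A5 was again the single clone above the parental samples, and A6-C9 was 1.18 below their mean on the log2 scale. The average log2 fold change of INSIG1 was -0.39 ± 0.279 and did not pass (edgeR, adjusted p = 0.562, and 0.47 without H9-A4). INSIG2 was at 5.93 and 5.70 CPM in parental cells and 4.35 to 6.47 CPM in the clones.

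**Figure D3:**
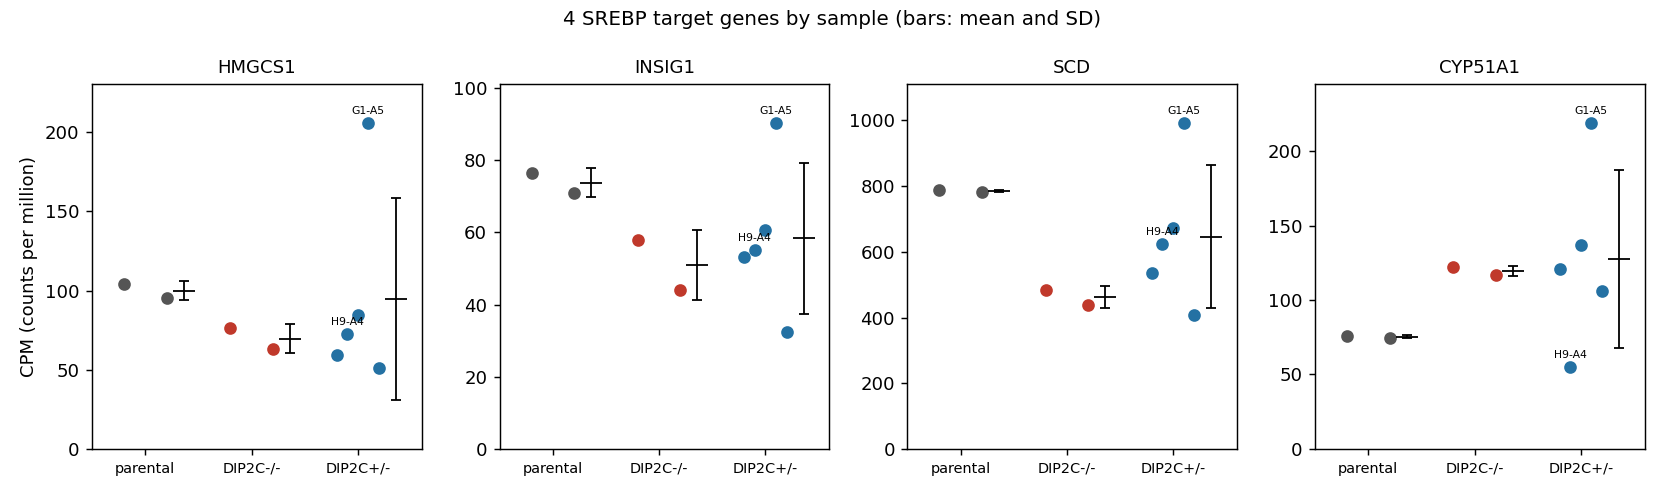
CPM of HMGCS1, INSIG1, SCD and CYP51A1 in each library, grouped as parental, DIP2C-/- and DIP2C+/-, with the mean and SD of each group beside the points. G1-A5 is the highest library for all 4 genes, at 206 CPM for HMGCS1 and 219 CPM for CYP51A1, and H9-A4 is below both parental samples for CYP51A1.

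Promoter sequence was available for 33 of the 38 members in the RefSeq table (GRCh38.p14), among them 22 SREBP targets. In the 250 bases before a start, CCAAT was found on either strand for 17 of these 22 targets (77.3%), compared with 37% of 27305 genes. GGGCGG was found for 21 of the 22 targets (95.5%) and for 46.2% of all genes. Among the 11 other members with a promoter, GGGCGG was found for 11 (100%) and CCAAT for 5 (45.5%). The high share of GGGCGG was thus not particular to the targets. TCACNCCAC was found for none of the 22 targets and for 1.09% of all genes, and SREBF2 was the single member with a match. Sterol elements vary in their letters, so the lack of a match says only that these letters are not in the window. The stretches around the CCAAT matches of HMGCS1, INSIG1, STARD4 and SCD, 4 examples chosen after their values were seen from the 6 targets for which A6-C9 was the lowest clone, and the sterol element of SREBF2 are shown with the matches in capitals (ATTGG is CCAAT on the other strand). IDI1 and HSD17B7, the remaining targets lowest in A6-C9, also had CCAAT matches and are not shown.
HMGCS1: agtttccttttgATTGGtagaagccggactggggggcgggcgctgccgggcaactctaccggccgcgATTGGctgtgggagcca
INSIG1: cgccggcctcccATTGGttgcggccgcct
STARD4: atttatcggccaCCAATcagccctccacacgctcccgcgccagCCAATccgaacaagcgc
SCD: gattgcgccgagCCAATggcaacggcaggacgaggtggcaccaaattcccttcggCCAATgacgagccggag
SREBF2: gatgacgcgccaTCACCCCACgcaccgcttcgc

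On GRCh38.p14 these stretches lie at chr5:43313496-43313579 on the minus strand (HMGCS1), chr7:155297696-155297724 on the plus strand (INSIG1), chr5:111512649-111512708 on the minus strand (STARD4), chr10:100346992-100347063 on the plus strand (SCD) and chr22:41832960-41832992 on the plus strand (SREBF2). All lie upstream of the annotated start, outside the transcript that begins there. Such matches are a description of the letters and not of binding.

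Of the transport genes, STARD4, a soluble sterol carrier and SREBP target, was at 19.5 and 15.6 CPM in parental cells, 14.2 and 11 CPM in the DIP2C-/- clones and 12.4, 10.3, 21.7, 26.7 and 10.1 CPM in the DIP2C+/- clones. A9-A12 and G1-A5 were above and the other clones below both parental samples. NR1H3, the LXR alpha receptor, was at 5.29 and 5.82 CPM in parental cells, 4.46 and 2.98 CPM in the DIP2C-/- clones and 4.21, 2.58, 4.14, 3.02 and 3.38 CPM in the DIP2C+/- clones. All knockout clones were below both parental samples, but the average log2 fold change of -0.65 ± 0.31 did not pass (edgeR, adjusted p = 0.392, and 0.272 without H9-A4). NR1H2, the LXR beta receptor, was at 26.2 and 22.6 CPM in parental cells and 23.2 to 39.5 CPM in the clones.

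The efflux pumps were at low levels. ABCA1 was at 1.58 and 0.815 CPM in parental cells, 3.34 and 0.906 CPM in the DIP2C-/- clones and 2.05, 0.966, 2.28, 1.15 and 0.918 CPM in the DIP2C+/- clones. The parental samples differed by 0.85 on the log2 scale for ABCA1, and the average log2 fold change of 0.42 ± 0.598 did not pass (edgeR, adjusted p = 0.817, and 0.693 without H9-A4). ABCG1, at 0.29 to 0.896 CPM over the 9 libraries, did not pass the filter on low counts and was not tested.

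In fatty acid synthesis, SCD was at 787 and 782 CPM in parental cells, 485 and 438 CPM in the DIP2C-/- clones and 535, 624, 672, 993 and 408 CPM in the DIP2C+/- clones. G1-A5 was the single clone above the parental samples. FASN was at 1658 and 1550 CPM in parental cells, 995 and 977 CPM in the DIP2C-/- clones and 1080, 1026, 1746, 1649 and 985 CPM in the DIP2C+/- clones. The clones fell apart for FASN, with A9-A12 and G1-A5 within or above the parental range and the other 5 clones at 977 to 1080 CPM. ACLY, which supplies cytosolic acetyl-CoA, was at 799 and 769 CPM in parental cells, 652 and 672 CPM in the DIP2C-/- clones and 724 to 901 CPM in the DIP2C+/- clones. ACACA, the cytosolic acetyl-CoA carboxylase, was at 254 and 297 CPM in parental cells and 254 to 322 CPM in the clones.

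ACACB, the mitochondrial acetyl-CoA carboxylase whose product restrains fatty acid oxidation, was at 24.0 and 29.1 CPM in parental cells, 18.4 and 18.5 CPM in the DIP2C-/- clones and 17.3, 27.1, 13.7, 13.5 and 16.2 CPM in the DIP2C+/- clones. H9-A4 lay within the parental range and the other 6 clones below it. Without H9-A4 ACACB fell by 0.71 ± 0.165 on the log2 scale, or 1.64-fold (edgeR, adjusted p = 0.0213), and with all 9 samples the value of -0.58 ± 0.248 did not pass (adjusted p = 0.353). ACACB overlaps UNG, an uracil DNA glycosylase gene on the same strand, which was at a mean of 82.3 CPM in parental and 70.0 CPM in knockout samples. Without H9-A4 the members that passed in the average were thus NPC2 (-1.89 ± 0.16, edgeR, adjusted p = 3.8e-05), CYP51A1 and ACACB, which is 3 of 37, beside 8.95% of all tested genes. The same 3 members passed in the DIP2C+/- clones without H9-A4, where 7.95% of genes did, with log2 fold changes of 0.95 ± 0.251 for CYP51A1 (edgeR, adjusted p = 0.0418) and -0.81 ± 0.177 for ACACB (adjusted p = 0.0184).

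Of the elongase and desaturases, ELOVL6 was at 116 and 105 CPM in parental cells and 99.0 to 142 CPM in the clones. FADS2, the delta-6 desaturase, was at 25.9 and 22.8 CPM in parental cells, 27.2 and 34.9 CPM in the DIP2C-/- clones and 30.9, 43.2, 36.6, 28.9 and 48.5 CPM in the DIP2C+/- clones. All knockout clones were above both parental samples, but the average log2 fold change of 0.55 ± 0.221 did not pass (edgeR, adjusted p = 0.332, and 0.187 without H9-A4). FADS2 shares 4259 bases with FEN1 on the same strand, which was at a mean of 106 CPM in parental and 103 CPM in knockout samples. FADS1, the delta-5 desaturase, lies within the annotated span of FADS2 on the opposite strand. It was at 2.6 and 1.92 CPM in parental cells, 4.35 CPM in H9-A4, 5.66 CPM in A9-A12 and 2.09 to 2.72 CPM in the other clones.

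Further genes of the same pathways were examined from lists. Of 20 other tested sterol genes 10 were higher and 10 lower in the average, and 0 passed with all 9 samples (edgeR, 4 at an unadjusted p under 0.05). Without H9-A4 NCEH1, a cholesteryl ester hydrolase, rose by 1.15 ± 0.174 on the log2 scale (edgeR, adjusted p = 0.0022). It was at 13.0 and 14.7 CPM in parental cells, at 27.6 to 35.8 CPM in 6 clones and at 10.7 CPM in H9-A4. Of 17 other tested fatty acid genes 7 were higher and 10 lower in the average and 0 passed with all 9 samples (edgeR, 0 at an unadjusted p under 0.05). Without H9-A4 CPT1A, which admits fatty acids to mitochondrial oxidation, fell by 0.70 ± 0.193 (edgeR, adjusted p = 0.0456), and MLXIPL, a glucose-responsive lipogenic transcription factor, fell by 1.99 ± 0.533 (adjusted p = 0.0414). MLXIPL was low throughout, at 1.75 and 1.16 CPM in parental cells, 0.107 to 0.616 CPM in 6 clones and 3.26 CPM in H9-A4.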

How the data were processed

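RNA from 2 parental RKO samples, 2 DIP2C-/- and 5 DIP2C+/- clones was sequenced by the authors on the Ion Proton system, aligned to hg19 with TopHat2 2.0.4 and quantified with Cufflinks 2.2.1 according to the submitters' processing notes (the paper names another Cufflinks version). The values deposited by the authors are estimated counts per gene symbol, and how they were exported is not given in the sources used here. In each library 98.1% to 98.6% of low values were whole multiples (within 0.01) of a step of 0.71089 to 1.1145, as division of reads by a constant per library would give. The steps imply 17134626 to 24864011 reads per library.

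Groups were taken from the labels. Estimated counts were rounded, filtered with filterByExpr and scaled with TMM factors. A coefficient per genotype was fitted to all 9 samples with the quasi-likelihood F test of edgeR 4.0.16 (R 4.3.3), and p-values were adjusted by Benjamini-Hochberg over all genes tested, with a threshold of 0.05. The average contrast weighted each clone equally. Single clones were set against the parental mean in log2 CPM (prior count 2), untested. Pairs of samples of a group had a chi-square per degree of freedom of 20.7 to 136.7, which is spread beyond counting noise. Each sample was counted as a replicate, although this spread does not show that the clones arose independently. The edgeR fit was run on counts simulated at the real spread and at a reduced spread. Pass conditions were set only at the reduced spread, so they do not show recovery at the spread of these data. The alternatives were DESeq2 size factors, library size only, DESeq2 1.42.0, other filters, a prior count of 0.5, only the compared groups, values divided by the step, and each sample left out in turn.

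The members, the further gene lists and the tests were chosen with earlier results of these data known. All members were named with their levels. Fit statistics were kept for NPC1, NPC2, DIP2C, members past the threshold in any fit, and the 2 members of each role with the largest average change. Genes outside the list were named where they passed, at most 5 a list by adjusted p. In bulk RNA, fewer cells of a type and less RNA per cell cannot be told apart. Gene positions are from GENCODE mapped to GRCh37 and promoters from RefSeq.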

Additional observations from a re-analysis of the deposited data

Results flagged for a closer look

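MVD and NSDHL lay on opposite sides of the parental mean in the genotypes, with both DIP2C-/- clones below and all 5 DIP2C+/- clones above it. For NSDHL, however, E3 lay only -0.02 from that mean on the log2 scale, where parental 1 minus parental 2 was -0.32. The direct log2 difference, DIP2C+/- minus DIP2C-/-, was 0.46 for MVD and 0.37 for NSDHL, and neither passed in edgeR's quasi-likelihood test over all genes. IDI1 was higher in G1-A5, at 123 CPM, than in the other 4 DIP2C+/- clones by a gap that is large for the range of the group (Dixon's criterion). TM7SF2 was lower in H9-A4, at 8.49 CPM, by the same criterion. Of 37 members examined in the 5 DIP2C+/- clones 2 were past it, where chance gives about 1.85.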

How the results depend on the processing

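The fall of NPC2 in the average of the knockout clones kept its direction in all 16 alternatives (log2 fold changes of -1.89 to -1.69). Numbers of genes called depended on the setting. With DESeq2's Wald test 297 genes were called in DIP2C-/-, 193 in DIP2C+/-, 304 in the average and 6 between the genotypes, and 1 member in DIP2C-/-. Without a filter 3 genes and 1 member were called in DIP2C-/-, and with at least 10 counts in every sample 0 genes in DIP2C-/-, 8 in DIP2C+/- and 11 in the average. With only the compared groups 1807 genes and 8 members were called in DIP2C-/-, 8 genes and 0 members in DIP2C+/-, and 1 gene between the genotypes. Dividing by the step called 1, 11, 23 and 0 genes in the 4 contrasts.

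Leaving out each sample in turn gave 1 to 733 genes and 0 to 1 members in DIP2C-/-, 1 to 1224 genes and 0 to 3 members in DIP2C+/-, 1 to 1378 genes and 0 to 3 members in the average, and 0 to 3 genes between the genotypes, the highest counts except the last being those without H9-A4. Adjusted p-values of NPC2 in DIP2C+/- were above the threshold, at 0.0519 to 0.294, without either parental sample, E3, C10, F6-A7, G1-A5 or A6-C9, and at 0.0525 with only the compared groups. Without H9-A4 the members wholly above the parental samples became 5 and those wholly below 4. Members at least 2-fold below the parental mean in any clone were 3, and became 6 with library size only and 5 with at least 10 counts in every sample.

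The following values, none of which passed with all 9 samples, changed sign when single samples were left out. NPC1 ranged from -0.33 to 0.10 in DIP2C-/-, -0.26 to 0.14 in DIP2C+/-, -0.27 to 0.13 in the average and -0.16 to 0.27 between the genotypes, where it was also -0.03 with library size only and -0.01 with at least 10 counts. ABCA1 ranged from -0.45 to 1.42 in DIP2C-/-, -0.12 to 0.80 in DIP2C+/- and -1.14 to 0.72 between the genotypes. Between the genotypes CYP51A1 ranged from -0.19 to 0.29, INSIG1 from -0.02 to 0.40, NR1H3 from -0.32 to 0.19 and ACACB from -0.28 to 0.01. The causes were not tested. No paired analysis was made because the labels give no pairing between the parental samples and the clones.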
